A study of Mus musculus with 6 samples.

Results

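Transforming growth factor beta (TGF-beta) signalling was examined through 10 genes chosen by name: the ligands Tgfb1, Tgfb2 and Tgfb3, the receptors Tgfbr1 and Tgfbr2, the signal transducers Smad2, Smad3, Smad4 and Smad7, and Nrros. All 10 were among the 15388 genes of the deposited table. TGF-beta is secreted in a latent form bound to its own propeptide, and a partner protein holds it in the matrix or on a cell surface until integrins or proteases release it. The freed dimer joins a type II and a type I receptor kinase, the type I kinase phosphorylates Smad2 and Smad3, and these enter the nucleus with Smad4, while Smad7 inhibits the receptor. In brain the pathway is known for keeping microglia in their resting, tissue-specific state, and Nrros is the protein that tethers latent TGF-beta to the microglial surface.

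The samples were hippocampi of 3 Cx3cr1-Cre/Ert2+; NuTRAP+ mice, numbered 201, 207 and 208, aged about 3 months and given tamoxifen at 100 mg/kg daily for 5 days. The Cre recombinase is expressed from the Cx3cr1 locus, so that all 3 mice kept 1 wild-type copy of that gene and any cell that uses the Cx3cr1 promoter, border macrophages as well as microglia, could recombine. The paper states that brain collection in this line was delayed for weeks after tamoxifen, to avoid labelled circulating monocytes. After recombination the NuTRAP reporter puts a GFP-tagged ribosomal protein on the ribosomes of those cells. In translating ribosome affinity purification (TRAP), part of the cleared homogenate of each mouse was kept as Input and the ribosomes caught by anti-GFP beads gave the Positive fraction, so there were 3 Input and 3 Positive libraries. The question put to each gene was whether its RNA was more or less abundant in the Positive fraction than in the Input.

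Over the genes of the deposited table, the 6 libraries held 14879734 to 17757918 counted reads. Of 15344 genes tested, 46% differed between the fractions (edgeR quasi-likelihood test, adjusted p under 0.05), 24% higher and 22% lower in Positive, and the median log2 fold change was -0.01. The 10 microglial markers examined were all higher, with log2 fold changes of 4.16 to 4.80, and their summed level was 5239 to 5581 scaled reads in Input and 104891 to 154587 in Positive. All 8 border macrophage markers were higher too, with a median of 4.16 and a sum of 204 to 275 scaled reads in Input and 2844 to 6126 in Positive. Of these, Pf4, Lyve1, Ms4a7 and Cd209f had Input libraries under 20 scaled reads and were tested only through their Positive reads. Of 6 monocyte markers 1 was in the table, Ly6c2, called higher at 1.61 from under 20 scaled reads in every Input library. Of 8 neutrophil markers 2 were in the table, with 1 lower and 1 not called. All 10 endothelial markers were higher, with a median of 1.88 and a sum of 2795 to 3219 in Input and 6041 to 12211 in Positive. All 10 oligodendrocyte markers were lower, as were all 8 of choroid plexus epithelium, with a median of -1.97 and a sum of 41434 to 55827 scaled reads in Input and 10681 to 14121 in Positive. Of fibroblast markers 5 of 8 were lower and 0 higher (median -0.71), and of ependymal markers 2 of 6 were lower (median -0.73). Astrocyte markers had a median of -0.33 and neuronal markers one of 0.10. In sum, astrocyte markers had 64418 to 68961 scaled reads in Input and 60569 to 72759 in Positive. Neuronal markers had 106752 to 118436 in Input and 114264 to 133689 in Positive. Levels and shares in Positive are therefore those of a mixed fraction, not of microglia alone. The part of these cell types in the values given below was not tested. Scaled reads are reads after division by the size factor of their library. A level in these bulk fractions cannot tell more cells of a type from more RNA per cell.

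Tgfb1, both receptors and Nrros were between 3.26-fold and 12.8-fold higher in Positive, Smad2, Smad3 and Smad4 were higher by at most 1.49-fold, Tgfb3 was lower, and neither Tgfb2 nor Smad7 passed the test. In counts, 7 of the 10 genes were higher, 1 was lower and 2 were not called, against 46% of all genes called. The groups of 3 libraries did not overlap in 8 of the 10, where 56.5% of all genes tested had groups that did not overlap. The median of the 10 was a log2 fold change of 0.58. Each of the 10 had over 20 scaled reads in every library, and the lowest value was 54 reads.

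The sequence just before the transcription start is shown for the 4 genes with the largest rise and for Tgfb2, the ligand that was not called. Each is 250 bases, ends at the base before the RefSeq start on GRCm38 (the mm10 assembly) and is written 5′ to 3′ on the strand of the gene. Capitals mark, on either strand, the letters of 5 searched motifs: GAGGAA (letters of PU.1 sites), CAGACA and GTCTAGAC (Smad-binding letters), GGGCGG (GC box) and TATAAA.
Tgfb1, chr7:25686752-25687001, plus strand: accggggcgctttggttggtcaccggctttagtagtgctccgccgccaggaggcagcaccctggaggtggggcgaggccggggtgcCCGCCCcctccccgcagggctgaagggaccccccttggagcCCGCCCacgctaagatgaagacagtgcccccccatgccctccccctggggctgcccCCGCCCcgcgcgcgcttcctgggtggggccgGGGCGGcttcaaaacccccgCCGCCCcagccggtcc
Tgfbr1, chr4:47352972-47353221, plus strand: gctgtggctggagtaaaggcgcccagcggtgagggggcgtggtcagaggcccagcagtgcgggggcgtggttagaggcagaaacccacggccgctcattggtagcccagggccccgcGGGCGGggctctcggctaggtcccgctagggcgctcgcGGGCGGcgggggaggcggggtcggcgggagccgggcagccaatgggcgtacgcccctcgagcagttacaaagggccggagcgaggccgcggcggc
Tgfbr2, chr9:116175364-116175613, minus strand: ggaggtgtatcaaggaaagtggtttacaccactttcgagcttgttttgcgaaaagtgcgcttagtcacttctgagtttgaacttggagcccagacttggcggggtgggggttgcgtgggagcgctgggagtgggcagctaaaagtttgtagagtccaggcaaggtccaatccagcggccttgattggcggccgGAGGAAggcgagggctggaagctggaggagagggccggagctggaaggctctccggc
Nrros, chr16:32165595-32165844, minus strand: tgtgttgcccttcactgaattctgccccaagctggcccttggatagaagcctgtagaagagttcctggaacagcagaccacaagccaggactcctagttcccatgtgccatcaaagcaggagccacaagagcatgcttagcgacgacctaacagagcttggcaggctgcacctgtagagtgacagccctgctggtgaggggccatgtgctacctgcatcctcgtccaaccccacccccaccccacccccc
Tgfb2, chr1:186705990-186706239, minus strand: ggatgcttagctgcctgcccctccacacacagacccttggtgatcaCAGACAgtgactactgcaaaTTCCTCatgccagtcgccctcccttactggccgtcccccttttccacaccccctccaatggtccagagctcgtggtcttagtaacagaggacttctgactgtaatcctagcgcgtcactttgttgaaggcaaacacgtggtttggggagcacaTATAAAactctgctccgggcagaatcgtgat

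The 4 windows of enriched genes had no motif in common among those searched. The GC box letters occurred 5 times before Tgfb1 and 2 times before Tgfbr1, and they are in 32.7% of the 32851 promoter windows of this length. Of the 5 windows shown, the letters GAGGAA occurred before Tgfbr2 and Tgfb2, and they are in 23.3% of all windows. Shorter core letters of the ETS family were not searched. The letters CAGACA and TATAAA, each found once before Tgfb2, are in 17.1% and 12.4% of windows, and GTCTAGAC, in 0.167% of windows, was in none of the 5. The Nrros window held none of the letters searched. GC content was 75.2% before Tgfb1, 74.8% before Tgfbr1, 58.4% before both Tgfbr2 and Nrros and 53.6% before Tgfb2, against a median of 52.4% over all windows. These are matches of letters and not measured sites. A further Tgfbr1 start in the RefSeq table is not shown. Its window held GAGGAA and CAGACA, each 1 time, and no GC box letters, with a GC content of 52.8%.

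Among the ligands, Tgfb1 moved most. Tgfb1 (chromosome 7, 25687002 to 25705077, plus strand, mm10), the isoform made by many immune cells, had 83.3, 73.0 and 56.4 scaled reads in the Input libraries of animals 201, 207 and 208, and 830.1, 1127 and 777 in their Positive libraries. Every Positive library was far above every Input library, with the highest value in animal 207. The log2 fold change was 3.68 ± 0.18 (SE, n = 3 per fraction), a 12.8-fold difference (edgeR, adjusted p = 3.82e-09), and 98.2% of all genes tested had a lower value. Leaving out any 1 library did not remove the call.

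Tgfb2 (chromosome 1, 186622792 to 186705989, minus strand), the isoform known from astrocytes and neurons, had 717, 799 and 836 scaled reads in Input and 702, 725 and 759.7 in Positive. The libraries of the fractions overlapped, although Positive was the lower of the pair in 3 of 3 animals. Its log2 fold change was -0.11 ± 0.09 (SE) (edgeR, adjusted p = 0.368), and the 95% interval of the difference ran from -0.30 to 0.09.

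Tgfb3 (chromosome 12, 86056745 to 86079041, minus strand), the third secreted isoform, had 199.8, 177 and 196 scaled reads in Input and 81.2, 101 and 125 in Positive. All 3 Positive libraries were lower than all 3 Input libraries, and animal 201 had both the highest Input and the lowest Positive value. The log2 fold change was -0.90 ± 0.18 (SE), or 53.6% of the Input level, (edgeR, adjusted p = 0.00133). Of the 10 genes only Tgfb3 was called lower.

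**Figure D1:**
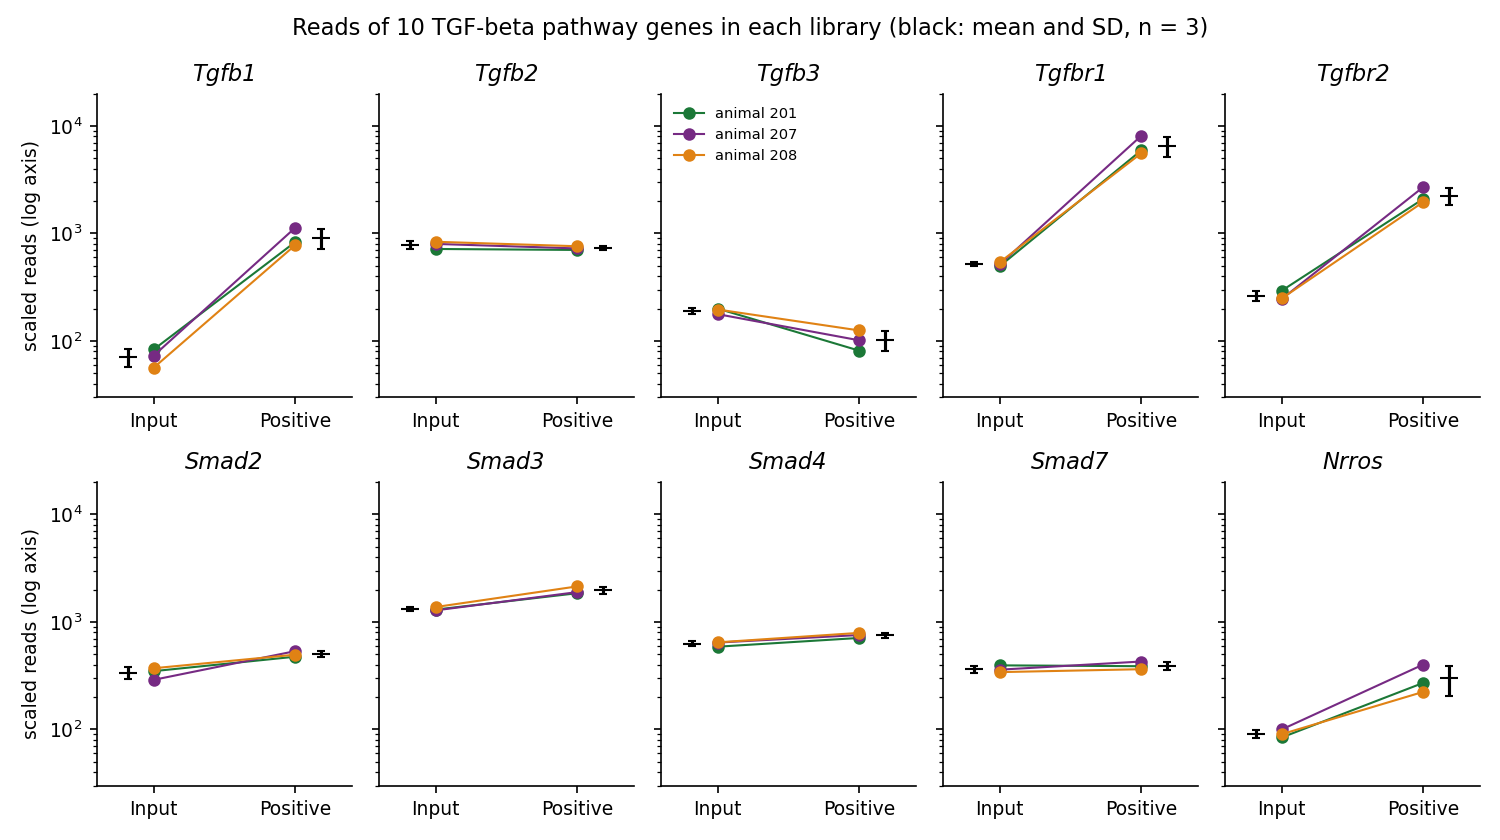
Scaled reads (log axis) of the 10 genes in each Input and Positive library, with lines joining the libraries of 1 animal and black marks for the mean and SD of 3 libraries. Tgfb1, Tgfbr1, Tgfbr2 and Nrros lie higher in Positive in all 3 animals, Tgfb3 lies lower, and Tgfb2 and Smad7 overlap between fractions.

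The make-up of the ligand RNAs therefore differed between the fractions, and ratios within a library show this without any scaling. The log2 ratio of Tgfb1 to Tgfb2 was -3.10, -3.45 and -3.89 in Input and 0.24, 0.64 and 0.03 in Positive, a difference of 3.79. Each animal shifted the same way and the groups did not overlap. For Tgfb1 to Tgfb3 the difference was 4.60, also in 3 of 3 animals. With 3 libraries against 3 an exact two-sided permutation test cannot go below p = 0.1, which both ratios reached, and adjusted over the 7 ratios examined this was 0.175. Expressed per kilobase of exon, Tgfb1 made up 6.87% ± 1.54 of the 3 ligand RNAs in Input and 53.3% ± 5.62 in Positive (SD, n = 3). Tgfb2 went from 65.7% ± 3.12 to 37.6% ± 4.04, and Tgfb3 from 27.5% ± 2.03 to 9.05% ± 2.11. With the longest transcript as the length, the Tgfb1 shares were 11.7% and 66.8%. These are shares in each whole fraction, not in microglial RNA alone.

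**Figure D2:**
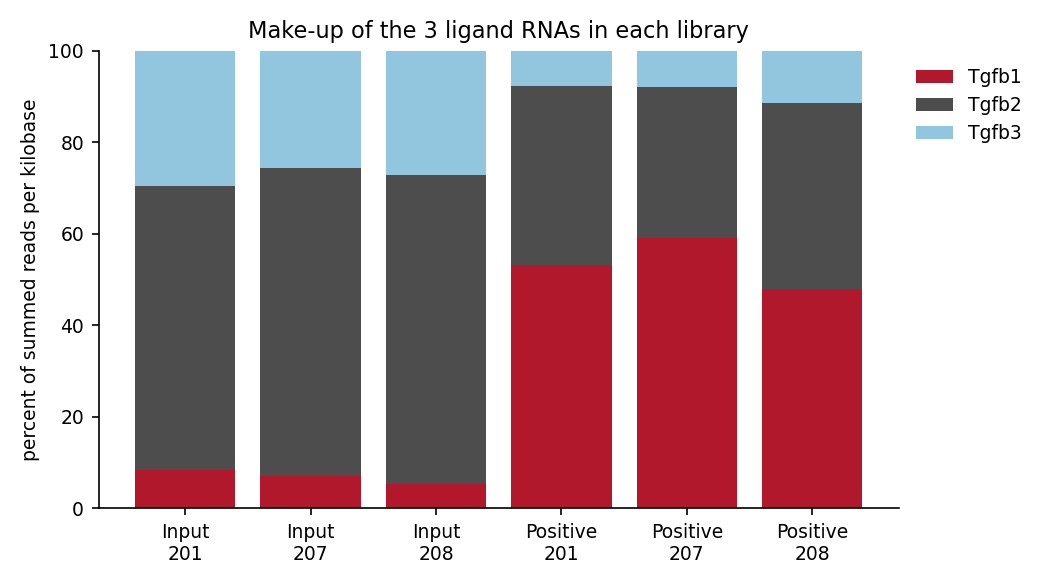
Stacked bars of the share of Tgfb1, Tgfb2 and Tgfb3 in the summed reads per kilobase of exon of the 3 ligands, 1 bar per library. Tgfb1 is the smallest part in the 3 Input libraries and the largest in the 3 Positive libraries, at 47.8% to 59.0%.

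Both receptors were strongly higher in the Positive fraction. Tgfbr1 (chromosome 4, 47353222 to 47414931, plus strand), the type I receptor kinase that phosphorylates Smad2 and Smad3, had 496, 515 and 539 scaled reads in Input and 5908, 8078 and 5557 in Positive. The Input libraries were close to each other, and animal 207 was highest in Positive. Its log2 fold change was 3.66 ± 0.14 (SE), 12.6-fold, (edgeR, adjusted p = 4.41e-10).

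Tgfbr2 (chromosome 9, 116084293 to 116175360, minus strand), the type II receptor that binds the ligand first, had 294, 246 and 249 scaled reads in Input and 2093, 2697 and 1957 in Positive. Here too the groups were far apart and animal 207 was highest. The log2 fold change was 3.10 ± 0.13 (SE), 8.57-fold, (edgeR, adjusted p = 1.03e-09).

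The balance of the receptors was compared within each library. The log2 ratio of Tgfbr1 to Tgfbr2 was 0.76, 1.07 and 1.12 in Input and 1.50, 1.58 and 1.51 in Positive, a difference of 0.55 in the same direction in 3 of 3 animals. The groups did not overlap, with an exact permutation p of 0.1, the smallest this design allows, and 0.175 adjusted over 7 ratios.

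Of the intracellular transducers, Smad2 and Smad3 were both modestly higher. Smad3 (chromosome 9, 63646767 to 63757994, minus strand), a receptor-activated Smad that binds DNA directly, had 1302, 1281 and 1375 scaled reads in Input and 1848, 1893 and 2139 in Positive, and the groups did not overlap. The log2 fold change was 0.57 ± 0.08 (SE), 1.49-fold, (edgeR, adjusted p = 9.97e-05). Smad2 (chromosome 18), the other receptor-activated Smad of this branch, had 348, 289 and 371 in Input and 475, 535 and 496 in Positive, a log2 fold change of 0.58 ± 0.12 (SE) (edgeR, adjusted p = 0.00171). The animals differed more for Smad2, from 0.42 in animal 208 to 0.89 in animal 207, than for Smad3, from 0.51 to 0.64. The log2 ratio of Smad3 to Smad2 was 1.98 ± 0.14 in Input and 1.96 ± 0.14 in Positive (SD, n = 3), and no shift was detected (exact permutation p = 0.9).

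Smad4 (chromosome 18), the common partner that carries both TGF-beta and bone morphogenetic protein (BMP) signals, had 588, 643 and 646 scaled reads in Input and 709, 755 and 791 in Positive. All Positive libraries were higher, by little. The log2 fold change was 0.26 ± 0.09 (SE), 1.20-fold, (edgeR, adjusted p = 0.0296). The call for Smad4 was lost under total count scaling, at 0.19 (edgeR, adjusted p = 0.103), and in 5 of the 6 fits that left out a library, where the adjusted p in edgeR ran from 0.0607 to 0.0923, the exception being the fit without the Positive library of animal 201.

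Smad7 (chromosome 18), the inhibitory Smad that TGF-beta itself induces, had 394, 359.5 and 341 scaled reads in Input and 387, 428 and 363 in Positive, and the groups overlapped. Its log2 fold change was 0.11 ± 0.12 (SE) (edgeR, adjusted p = 0.476) and a 95% interval of -0.14 to 0.36. The log2 ratio of Smad7 to Smad4 was -0.78 ± 0.18 in Input and -0.94 ± 0.16 in Positive (SD, n = 3, exact permutation p = 0.5).

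Nrros (chromosome 16, 32142785 to 32165594, minus strand), the latent TGF-beta anchor of microglia, had 84.3, 100.0 and 90.4 scaled reads in Input and 271, 401 and 224 in Positive. The groups did not overlap, and the Positive libraries were spread widely, with animal 207 highest. The log2 fold change was 1.71 ± 0.21 (SE), 3.26-fold, (edgeR, adjusted p = 2.63e-05). In value it stood below Tgfb1, Tgfbr1 and Tgfbr2, and all 4 stood below the 10 microglial markers, the lowest of which had 4.16. Lrrc32, the related anchor known from regulatory T cells and endothelium, had 56.9, 39.3 and 23.0 scaled reads in Input and 117, 51.0 and 47.6 in Positive, with a log2 fold change of 0.85 ± 0.38 (SE) (edgeR, adjusted p = 0.0888). With the animal as a replicate block Lrrc32 passed, at 0.82 (edgeR, adjusted p = 0.015). The log2 ratio of Nrros to Lrrc32 overlapped between the fractions, at 1.30 ± 0.71 in Input and 2.14 ± 0.89 in Positive (SD, n = 3, exact permutation p = 0.3).

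**Figure D3:**
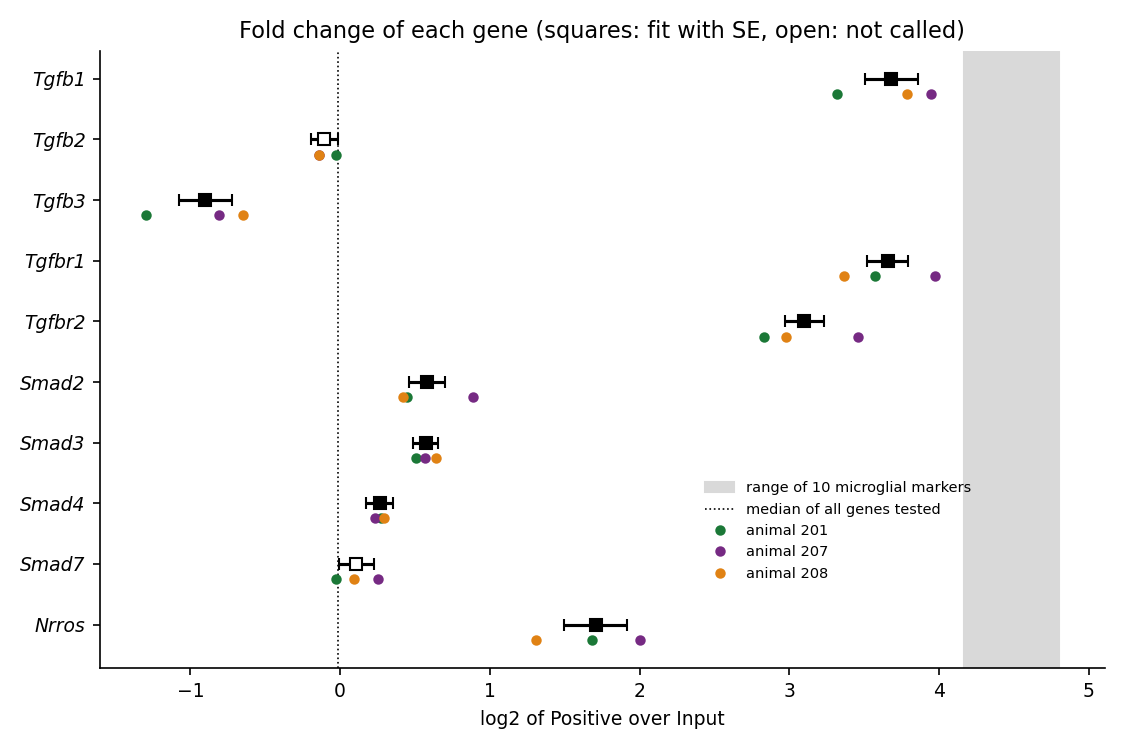
Log2 fold change of Positive over Input for the 10 genes (squares with SE, open where not called), with the ratio in each animal as coloured points, the median of all genes tested as a dotted line and the range of 10 microglial markers shaded. Tgfb1 and Tgfbr1 lie just below the shaded range of 4.16 to 4.80, Smad2 and Smad3 lie at 0.58 and 0.57, and Smad4 and Smad7 lie closer to 0.

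Levels of different genes were set side by side per kilobase of exon. In Input the order was Smad3 at 238 ± 8.97 scaled reads per kilobase, then Smad4 at 168 ± 8.70, Tgfb2 at 135 ± 10.6, Smad7, Tgfbr1, Tgfb3, Smad2, Tgfbr2, Nrros at 21.9 ± 1.90 and Tgfb1 at 14.1 ± 2.69 (SD, n = 3). Of the neighbours in that order, Smad7 and Tgfbr1 overlapped, as did Smad2 and Tgfbr2. In Positive the first was Tgfbr1 at 997 ± 209, followed by Smad3 at 354 ± 28.2, Tgfbr2 at 275 ± 48.1, Smad4 at 203 ± 11.0, Tgfb1 at 181 ± 37.5, Tgfb2 at 126 ± 5.04, Smad7, Nrros at 71.5 ± 22.0, Smad2 and Tgfb3 at 30.3 ± 6.51. Smad4 and Tgfb1 overlapped there, as did Smad7 and Nrros and also Nrros and Smad2. With the longest transcript as the length, Tgfbr1 stood above Smad7 and Tgfb1 above Nrros in Input, and Tgfb1 stood above both Tgfbr2 and Smad4 in Positive. Without the Input library of animal 201, Tgfbr1 also stood above Smad7. In each of these settings Tgfbr1 was first in Positive. The order is that of the whole fraction, which also held RNA of other cell types.

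The rest of the pathway was taken from lists by role. Over 91 further genes tested, 38 were higher and 15 lower, with a median log2 fold change of 0.19. Over all genes tested 24% were higher and 22% lower, with a median of -0.01, and each list count below stands against these shares. The 38 include the microglial genes known to depend on TGF-beta other than Tgfbr1, which were all higher. The 15 genes that hold ligand latent or release it had 6 higher, 3 lower and a median of 0.37. The integrin subunits Itgb5, Itgb3 and Itgb1 rose by 3.36, 2.86 and 1.50 on the log2 scale and Itgav, their alpha partner, by 0.37. Itgb8, whose pairing with Itgav activates latent TGF-beta on neighbouring cells, had -0.19 ± 0.09 (SE) (edgeR, adjusted p = 0.0996), and the ligand-cleaving protease Furin had 0.20 with 0.103. Of the latent TGF-beta binding proteins, which carry the ligand to the matrix, Ltbp4 rose by 0.90 while Ltbp1 and Ltbp3 had -0.69 and -0.51, both called lower. Itgav was no longer called without the Input library of animal 208 or the Positive library of animal 207 (edgeR, adjusted p up to 0.0859) or with limma (adjusted p = 0.0662), nor Ltbp1 without the Input library of animal 207 or 208 (up to 0.0679).

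Of 5 genes of co-receptors, a pseudoreceptor and a receptor-binding protein, 3 were higher and 1 lower, with a median of 0.47. With single libraries left out, 2 or 3 were higher. The co-receptors Eng and Tgfbr3 went opposite ways. Eng, the endoglin of endothelium and macrophages, had 213, 143 and 199 scaled reads in Input and 1021, 939 and 687 in Positive, and rose by 2.25 ± 0.17 (SE) (edgeR, adjusted p = 2.66e-07). Tgfbr3 (betaglycan), which presents TGF-beta2 to the receptors, had 334, 415 and 395 in Input and 298, 299.7 and 275 in Positive, a log2 fold change of -0.39 ± 0.12 (SE) (edgeR, adjusted p = 0.0199). That call was lost without the Input library of animal 207 or 208, where the adjusted p in edgeR was 0.0933 and 0.0716. Tgfbrap1, a protein that binds the receptors inside the cell, rose by 0.47, and the pseudoreceptor Bambi had 0.21 (edgeR, adjusted p = 0.36). Cd109, another gene of this list, rose by 0.58 (edgeR, adjusted p = 0.0241). The log2 ratio of Tgfbr2 to Eng was higher in Positive by 0.84, in 3 of 3 animals and without overlap (exact permutation p = 0.1, the smallest possible).

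Most other receptors and ligands of the superfamily were not called or were lower. Of 9 further type I and type II receptors 2 were higher and 2 lower, with a median of -0.02. Acvrl1 (ALK1), a type I receptor known from endothelium, had 145, 97.8 and 115 scaled reads in Input and 681, 496 and 330 in Positive, and rose by 2.08 ± 0.24 (SE). The BMP receptor Bmpr1a and the activin receptor Acvr2a had -0.27 and -0.29, both called lower. Bmpr1a lost the call without the Input library of animal 208 (edgeR, adjusted p = 0.115) and Acvr2a without either library of animal 201 (up to 0.0689). The activin receptor Acvr1b and the BMP receptor Bmpr2 had 0.02 and -0.01, where the adjusted p in edgeR was 0.902 and 0.911. Of 14 ligands of the BMP, growth differentiation factor, activin and inhibin, and Lefty groups, 0 were higher and 6 lower in edgeR, with a median of -0.41. At an unadjusted p under 0.05 the count of higher ligands was also 0, and only Gdf1, whose reads are uncertain, was called higher in any alternative. Bmp6 fell by 1.32 on the log2 scale, Inha by 0.89 and Gdf11 by 0.70.

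Among the other Smads, Smad1, a receptor-activated Smad of the BMP branch, rose by 0.51 ± 0.11 (SE). Its relatives Smad5 and Smad9 had -0.06 and -0.15, where the adjusted p in edgeR was 0.674 and 0.452. Smad6, the inhibitory Smad of the BMP branch, had 40.7, 32.8 and 27.7 scaled reads in Input and 114, 63.0 and 41.4 in Positive, a log2 fold change of 1.11 ± 0.35 (SE) (edgeR, adjusted p = 0.019). The call was also lost without the Input library of animal 207 or 208, and without the Positive library of animal 201 Smad6 had 0.64 (edgeR, adjusted p = 0.115). Of 18 Smad regulators 7 were higher and 1 lower, with a median of 0.18. The corepressors Ski and Skil rose by 0.65 and 0.54. Tgif1 and Tgif2, further corepressors, had 2.19 ± 0.34 and 2.19 ± 0.28 (SE), but from few reads. In Input Tgif1 had 36.6, 18.7 and 12.5 scaled reads and Tgif2 had 15.2, 30.9 and 24.4. Neither exceeded 20 scaled reads in every Input library, so both were tested only through their Positive reads. The Smad phosphatase Ppm1a had -0.28, called lower but lost without the Input library of animal 207 or 208 (edgeR, adjusted p up to 0.0539). The ubiquitin ligases Smurf2 and Nedd4l had 0.25 and 0.17, where the adjusted p in edgeR was 0.0663 and 0.0926, and the Smad anchor Zfyve9 had 0.17 with 0.101. The receptor-binding Fkbp1a had -0.21 with 0.125.

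**Figure D4:**
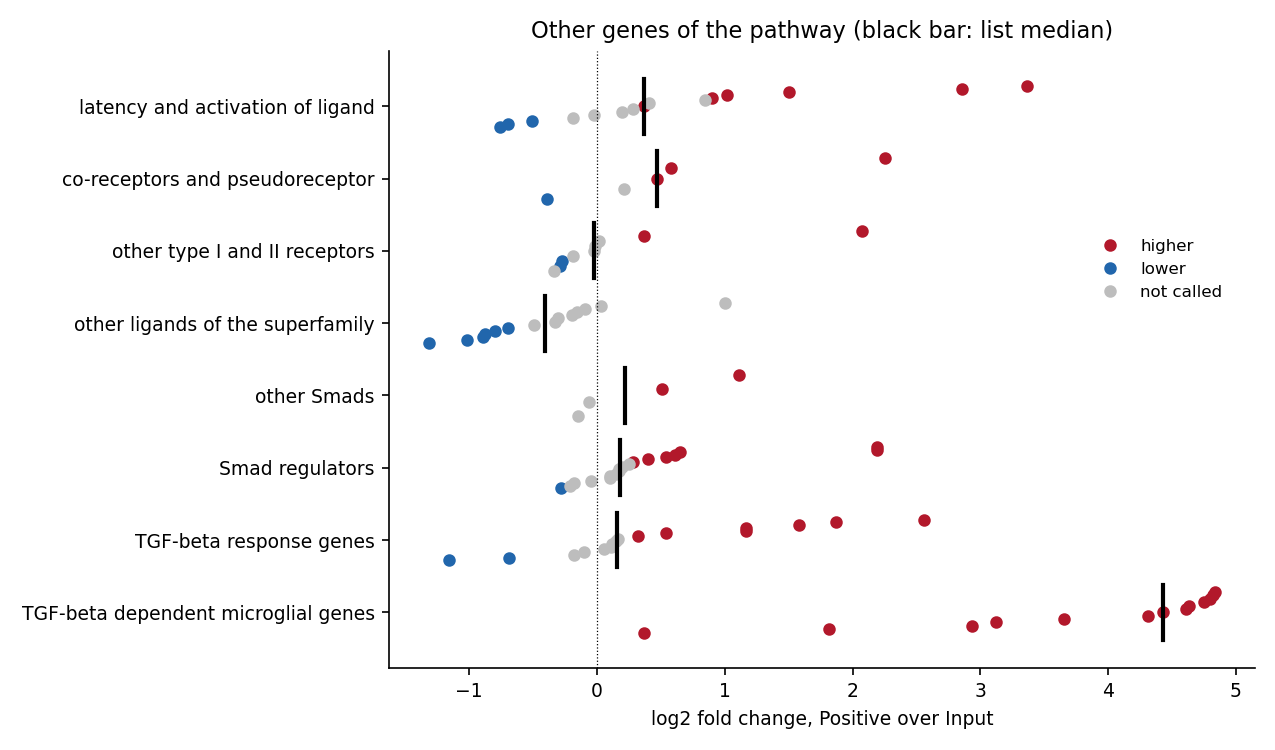
Log2 fold change of Positive over Input of each gene tested in the pathway lists, 1 point per gene and list (Skil has a point in 2 lists, and Smad7 and Tgfbr1 stand in the last 2), coloured by call, with the list median as a black bar. Ligands of the superfamily have a median of -0.41 and 0 genes called higher, and the microglial genes known to depend on TGF-beta lie between 0.37 and 4.84.

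Of 16 genes known to respond to TGF-beta or BMP in many cell types, 7 were higher and 2 lower, with a median of 0.16. Smad7, described above, is in that count, and Skil is counted both here and among the Smad regulators. Pmepa1, a membrane protein that restrains TGF-beta signalling and is induced by it, had 636, 605 and 576 scaled reads in Input and 1761, 1993 and 1690.3 in Positive, without overlap. It rose by 1.58 ± 0.09 (SE) (edgeR, adjusted p = 1.63e-08). The collagen genes Col1a1 and Col1a2, which are also 2 of the 8 fibroblast markers, had -0.69 and -1.16, both called lower. The libraries of the fractions overlapped for Col1a1 (edgeR, adjusted p = 0.0418). Junb, an AP-1 factor, rose by 0.32, a call lost with limma (adjusted p = 0.0666) and without the Input library of animal 207 (edgeR, adjusted p = 0.059), and Bhlhe40 had 0.05 with 0.642. The BMP-responsive Id1, Id2 and Id3 had 0.15, -0.11 and -0.18, none called.

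The microglial genes known to depend on TGF-beta were higher in 13 of 13 cases, with a median of 4.43. This list holds Tgfbr1 and 5 of the 10 microglial markers above. C1qa, Tmem119 and Fcrls, among its most abundant genes, rose by 4.61, 4.63 and 4.82. The lowest were Gas6, a ligand of phagocytic receptors, at 0.37, and Mertk, one of those receptors, at 1.81.

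The size of the rise varied between animals. For Tgfb1, Tgfbr1, Tgfbr2 and Nrros the log2 of Positive over Input was highest in animal 207, at 3.95, 3.97, 3.46 and 2.00. The medians of the microglial and border macrophage lists were also highest in that animal, at 4.95 and 4.45. The microglial median was lowest in animal 208, at 4.38, and the border macrophage median in animal 201, at 3.74. For Ltbp4 and Smad6 it was highest in animal 201, at 1.13 and 1.49, and lowest in animal 208, at 0.46 and 0.58. The endothelial list median was 2.19, 2.15 and 1.09 in animals 201, 207 and 208. Eng and Acvrl1 were lowest in animal 208 too, at 1.79 and 1.52, but highest in animal 207, at 2.71 and 2.34. Lrrc32 went the other way, with its lowest value, 0.37, in animal 207. The part of border macrophages in the values of the 4 genes, and of endothelial RNA in any of these values, was not tested.

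**Figure D5:**
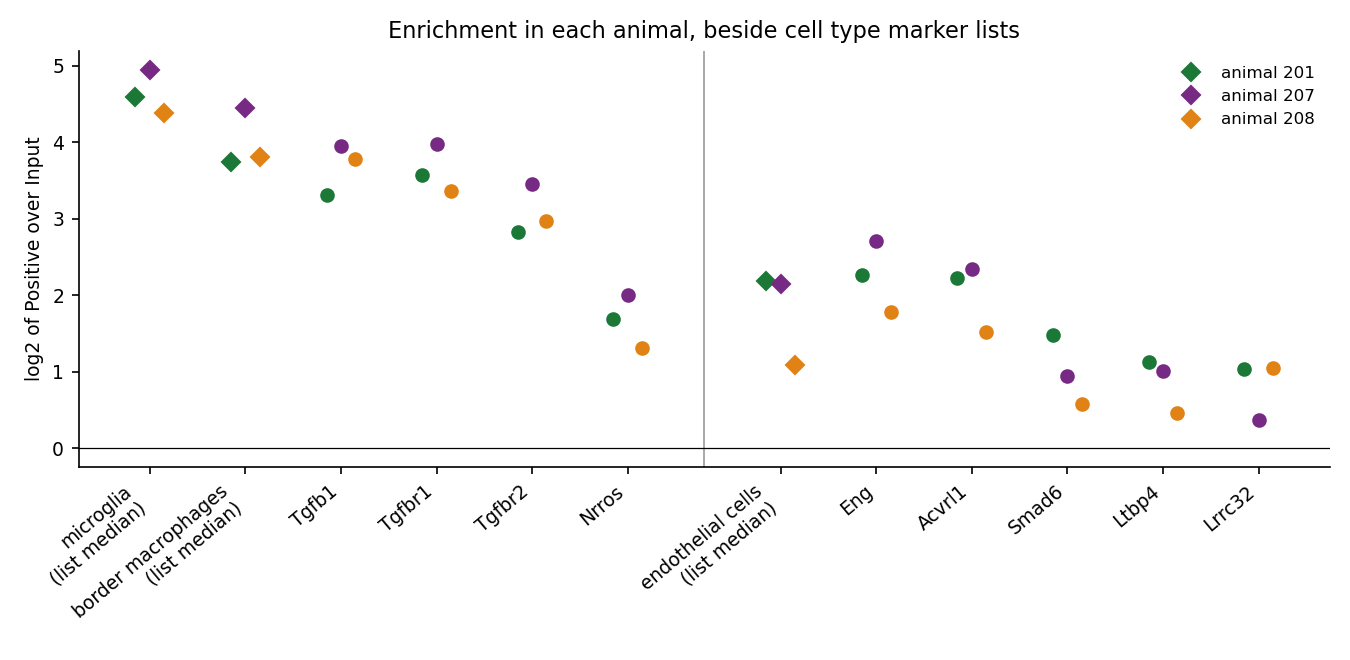
Log2 of Positive over Input in each animal for the 4 genes with the largest rise (left) and for 5 partner genes (right), beside the medians of marker lists (diamonds). Left of the line animal 207 is highest throughout, and right of it animal 208 is lowest for all but Lrrc32.

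The genes whose profile over the 6 libraries lay nearest were sought among 12114 others with at least 100 scaled reads on average. The distance was the root mean square difference of log2 profiles centred on each gene. Nearest to Tgfbr1 were Arhgap45, Sla and Ptgs1, at distances of 0.083, 0.085 and 0.12. For Tgfb1 they were Cyth4, Ugt1a7c and F11r, at 0.088, 0.12 and 0.13, where Ugt1a7c shares exons with related genes and its reads are uncertain. Skap2, Oasl2 and Rnf130 lay nearest to Nrros, at 0.094, 0.10 and 0.10. Eif3e, Foxp1 and Azin1 lay nearest to Tgfb2, at 0.021, 0.023 and 0.023. In a design with only a pair of fractions, likeness is mostly a like fold change.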

How the data were processed

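Per the methods of the study, reads from directional poly(A) libraries were trimmed and aligned to mm10 with Strand NGS, and only reads in the proper direction were retained. Rows carry Ensembl gene IDs, and whether counting used strand is not given in the sources used here. The raw values deposited by the authors are expected counts (estimated counts, in part not whole), kept by the authors where all libraries of either fraction reached 20 raw reads. The deposited normalized columns hold log2 values, scaled per library and centred on the Input median. No member overlapped another gene on its strand, but Tgfb2, Tgfb3 and Smad4 have an antisense neighbour, whose reads may not be separable.

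Expected counts were rounded and tested in R 4.3.3 with edgeR 4.0.16 (quasi-likelihood), median-of-ratios scaling and no animal term, as in the study. Genes exceeding 20 scaled reads throughout either fraction were kept, which removed 44. Benjamini-Hochberg adjustment ran over all genes kept, and a value under 0.05 was a call. DESeq2 1.42.0, limma 3.58.1, other scalings and filters, an animal block and leaving out single libraries were alternatives. The code was tested on simulated data. Errors are SD over animals or SE of the fit. Levels per length used the union of exons in GENCODE M21 on GRCm38, and promoter sequences came from RefSeq on GRCm38.p6, which held 6 of the 10 members. Positive and Input libraries of 1 animal share their tissue, so animal numbers pair them. Correlations of their deviations from the fraction means were 0.19, 0.058 and 0.12.

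The 10 members and the lists were chosen with earlier results of these data known. Named genes were the members, the 4 most abundant tested genes of each list and a fixed set of direct partners. Further list genes were named once their values were known. Some genes that the rule names are not reported here.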

Additional observations from a re-analysis of the deposited data

How the results depend on the processing

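In all, 80 results were recomputed. Each of the 10 members kept its direction in every alternative run, and no member but Smad4 changed its call. Smad4 also lost its call with limma on the deposited values, at 0.25 with a limma adjusted p of 0.0731, as did Itgav, Junb and Smad6. The count of members called higher was 6 or 7 and that called lower 1 throughout. Total count scaling gave 7320 genes differing, 41.6% of them higher, against 7054 and 52.2%, and moved the median of all genes by -0.077. Leaving out single libraries gave 5541 to 7261 genes differing. With the animal as a replicate block 7567 differed, and of the named genes the block brought Lrrc32 (0.82) and Gdf1 (2.50) past the threshold and changed no other call.

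With the longest transcript as the length, the Tgfb1 share of ligand level was 11.7% in Input and 66.8% in Positive. Under total count scaling Acvr1b had -0.0624 and Bhlhe40 -0.0224, and Acvr1b had -0.00111 with the authors' size factors and -0.00522 with limma. Leaving out one library gave values on both sides of 0 for Bmpr2 (-0.0555 to 0.0488), Acvr1b (-0.0610 to 0.0756), Smad5 (-0.149 to 0.0121), Bhlhe40 (-0.0199 to 0.127) and the ratio of Smad3 to Smad2 (-0.0871 to 0.0683). None of these genes passed its test in any of those fits, and the ratio was not tested with a library left out. The cause was not tested. Itgb8 and Fkbp1a passed under total count scaling, at -0.26 and -0.29, and without single Positive libraries Furin, Nedd4l, Fkbp1a and Lrrc32 passed. Small list counts moved too: 2 other Smads called higher became 1 with limma, with a minimum of 100 scaled reads and without 3 of the libraries, 1 Smad regulator called lower became 0 to 2 without single libraries and 3 under total count scaling, and 2 receptors and 2 response genes called lower each became 1 without some libraries. Ratios of reads need no scaling, and with a pseudocount of 1 each kept its direction. Low reads limit Tgfb1, Nrros, Tgif1 and Tgif2 in Input, and Lrrc32.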

Other observations

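Gdf1, a growth differentiation factor gene that lies within Cers1 on the same strand, had 0, 0 and 738 scaled reads in the Input libraries of animals 201, 207 and 208 and 470, 449 and 542 in Positive. Cers1 had 2177, 2308 and 1502 in Input, and the sum of both genes was 2177, 2308 and 2240 there and 1580, 1471 and 1899 in Positive. The sums were alike in the 3 Input libraries where the single genes were not, so the value of Gdf1 alone is uncertain. Without the Input library of animal 208 its fitted log2 fold change is not given, since both remaining Input libraries are at 0.

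Of the 102 further pathway genes listed, 11 were not in the table, among them the ligands Gdf15 and Mstn and the integrin subunit Itgb6, and were not analysed here.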
